A study of Mus musculus with 13 samples.

Results

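The genes described here encode core parts of the RNA splicing machinery: the SR proteins (symbols starting with Srsf), the small nuclear ribonucleoprotein (snRNP) proteins whose symbols start with Snrp, and the subunits of splicing factor 3 (symbols starting with Sf3). They were every row of the deposited gene table whose Ensembl identifier maps to such a symbol, leaving out symbols that contain "-ps", and numbered 33 of 54232 rows, with 11 Srsf, 13 Snrp and 9 Sf3 genes. The study profiled mouse oocytes that lack Sirena1, a long noncoding RNA, and wild-type (WT) oocytes, before and after meiotic maturation. It held 4 MII Null, 3 MII WT, 3 GV Null and 3 GV WT libraries, each made from a pool of 25 cells. Null cells came from Sirena1 -/- mice, in which Cas9 had removed the promoter of the noncoding RNA and which descended from crosses to C57BL/6NCrl; WT cells carried no such deletion. The labels give the strain of all samples as C57BL6/J, while the collection protocol names C57Bl6/J or C57BL/6NCrl donors, and no age is given. All females were superovulated. GV oocytes, which are fully grown and still hold an intact nucleus (the germinal vesicle), were collected in M2 medium with 0.2 mM IBMX, a phosphodiesterase inhibitor that keeps them arrested. MII eggs, which have completed the first meiotic division, were collected in M2 medium after injection of hCG. The collection protocol names IBMX for GV oocytes and not for MII eggs.

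Introns are removed by the spliceosome, in which the U1 snRNP binds the start of an intron and the U2 snRNP binds the branch site near its end. The U1, U2, U4 and U5 snRNPs are each built on a ring of Sm proteins, which the SMN complex loads onto the RNA, and the SF3A and SF3B complexes anchor U2 at the branch site. SR proteins bind exons and recruit these particles. A fully grown mouse oocyte is largely silent in transcription and remains so through maturation, when many stored mRNAs are degraded and others gain or lose poly(A) tails.

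The libraries held between 30867614 and 41285507 counts. The gene row of Sirena1 (listed as C86187) had 35.9 to 45.0 CPM (counts scaled as described below) in MII Null eggs and 4271 to 4693 CPM in MII WT eggs. It had 23.3 to 26.4 CPM in GV Null oocytes and 2912 to 3092 CPM in GV WT oocytes, so every library fitted its genotype label. Oocyte markers summed to 10119 to 14409 CPM in every library. Of 23 markers of the somatic follicle cells (cumulus and granulosa), 3 (Serpine2, Nr5a2 and Cyp19a1) were high in all libraries and were set aside after their values were seen. The other 20 summed to 537 and 178 CPM in GV Null replicates 2 and 3, where none of the 20 was at 0, against 28 CPM in GV Null replicate 1 and 27.6 to 55.1 CPM in GV WT oocytes. They summed to 36.3 CPM in MII Null replicate 4, with 15.4 to 17 CPM in MII Null replicates 1 to 3 and 16.5 to 19.7 CPM in MII WT eggs. Of these 20 markers, 2 to 10 were at 0 in each egg library and 0 to 4 in each oocyte library. GV Null replicate 2 also held 11.3 CPM of blood and immune markers, against 1.37 to 4.1 CPM in the other 12 libraries. MII Null replicate 4 stood apart on the first principal component, which separated the stages and held 65.8% of the variance, at 25.7 against 65.8 to 81.4 for the other MII libraries, and so did GV Null replicates 2 and 3, at -108 and -91.1 against -71.3 to -64.4 for the other GV libraries. Levels here are CPM scaled by the trimmed mean of M-values (TMM). They are relative to each library's counts in tested genes times its TMM factor. That factor was 1.05 to 1.12 in GV libraries and 0.904 to 0.957 in MII libraries. It therefore raised eggs against oocytes compared with plain totals, and small changes depend on it. In pools of whole cells, fewer cells of a type and less RNA per cell cannot be told apart. The labels do not say whether replicates came from separate animals, so p-values measure the spread between these pools, which may be technical.

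At meiotic maturation these genes changed in both directions, as did all genes tested. In Null eggs against Null oocytes, 14 of the 32 members with enough counts to test were higher and 10 were lower (edgeR quasi-likelihood test, Benjamini-Hochberg adjusted p under 0.05 over all 20143 genes tested), and 8 did not pass. In WT eggs against WT oocytes, 13 were higher, 10 were lower and 9 did not pass. The higher counts were less steady than the lower ones. In WT, 7 or 8 were higher without GV WT replicate 1, 2 or 3. The same held without MII Null replicate 1, 3 or 4, or MII WT replicate 1 or 3. The lower counts were 8 or more with any 1 of these libraries left out. Leaving out GV Null replicates 2 and 3 together left 1 GV Null library. For that fit, here and below, only the size of a change is given, and it rests on that library. Of all genes tested, 22.1% were called higher and 26.9% lower in Null, and 19.9% higher and 22.8% lower in WT. For members these shares were 43.75% higher and 31.25% lower in Null, and 40.6% and 31.25% in WT. The lower shares lay nearer to those of all genes than the less steady higher shares did. The median member change was 0.24 on the log2 scale in Null and 0.09 in WT, against -0.05 and 0.01 over all genes. The 10 lower members were the same in both genotypes, and 11 higher members were shared: Snrpd3, Sf3b2 and Sf3b3 passed in Null alone, and Snrpn and Sf3b4 in WT alone. The sizes were unequal. With a change of over 1.5-fold required by the test itself, 8 members in Null and 6 in WT were lower, while 0 in Null and 1 in WT (Snrpe) were higher, against 15.0% and 12.5% of all genes lower and 1.02% and 0.958% higher. The members together made up 0.170 to 0.182% of counts in MII Null eggs and 0.173 to 0.187% in MII WT eggs, against 0.180 to 0.186% in GV Null oocytes and 0.185 to 0.190% in GV WT oocytes.

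**Figure D1:**
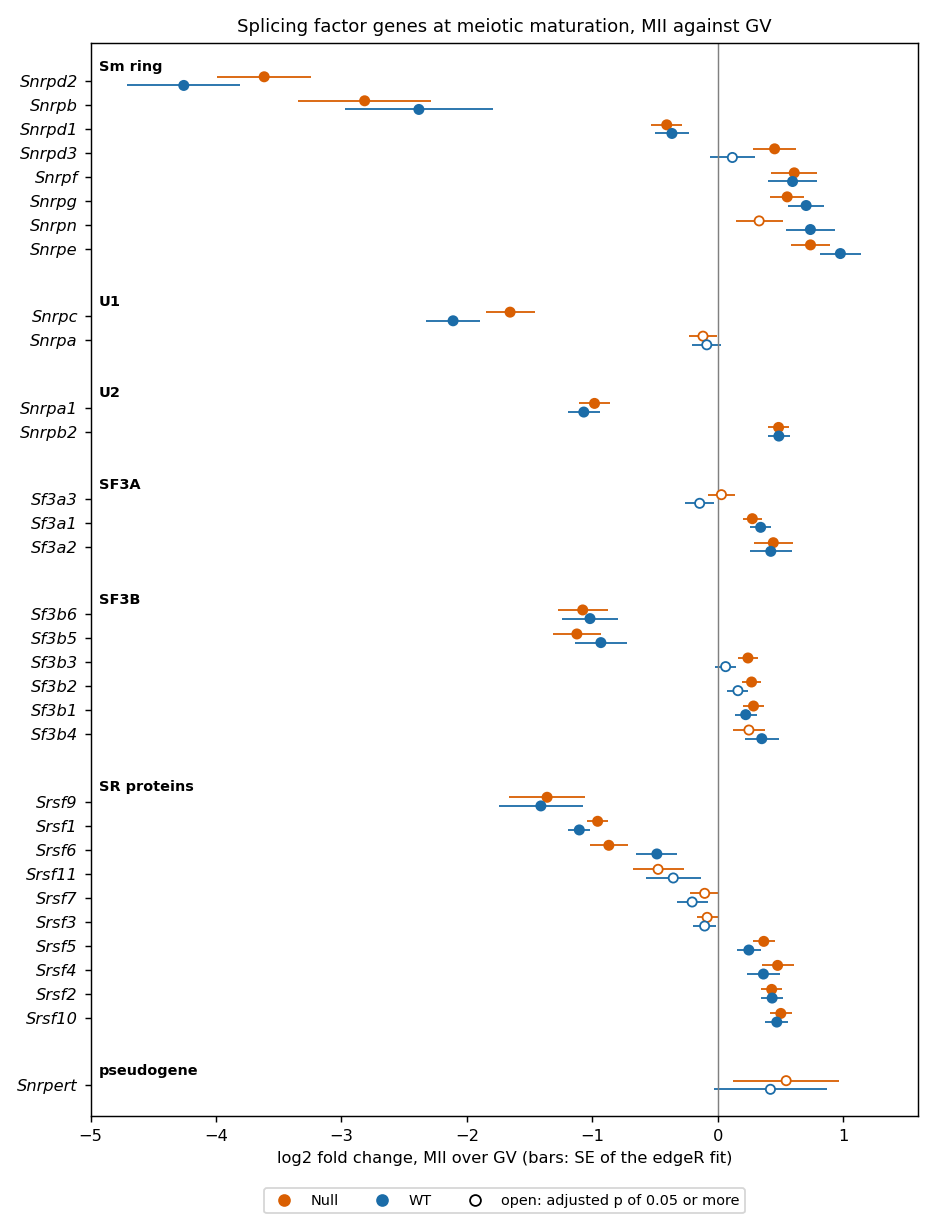
The log2 fold change of each of the 32 tested members, MII over GV, with its standard error (SE) as a bar, in Null (orange) and WT (blue) cells, grouped by role; open circles did not pass. Snrpd2 and Snrpb of the Sm ring and Snrpc of U1 lie farthest to the left, at or below -1.66, and no member lies above 0.98.

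The Sm ring held both the deepest falls and the highest rises. Snrpd2, encoding SmD2 (ENSMUSG00000040824, chr7:19149445-19152734 in GRCm38.p6), stood at 1.81, 0.455, 0.350 and 1.77 CPM in MII Null eggs and at 0.596, 0.793 and 0.667 CPM in MII WT eggs. It stood at 11.8, 15.4 and 14.3 CPM in GV Null oocytes and at 13.4, 12.7 and 13.4 CPM in GV WT oocytes. Every egg library was far below every oocyte library, and the 4 Null egg libraries fell into a higher and a lower pair. Here and below, a lack of overlap between stages describes the printed values only. Its share over all genes is not given for maturation. The difference was 12.3-fold in Null (log2 -3.62, SE 0.38, adjusted p 4.92e-06) and 19.1-fold in WT (log2 -4.26, SE 0.45, adjusted p 6.98e-06). Snrpb, encoding SmB (ENSMUSG00000027404, chr2:130171636-130179382), had 3, 5, 4 and 27 raw counts in MII Null eggs and 9, 5 and 13 in MII WT eggs, against 59, 101 and 86 in GV Null oocytes and 65, 56 and 73 in GV WT oocytes. In CPM these were 0.0787, 0.175, 0.127 and 0.839 in MII Null eggs and 0.298, 0.172 and 0.413 in MII WT eggs, against 1.45, 2.65 and 2.36 in GV Null oocytes and 1.46, 1.40 and 1.82 in GV WT oocytes. The stages did not overlap, and the lowest egg library was at the detection limit of 3 counts. Snrpb fell in both genotypes (log2 -2.82, SE 0.53, adjusted p 0.000356 in Null; log2 -2.38, SE 0.59, adjusted p 0.00395 in WT). The 3 Null libraries with the most Snrpb within their stage, MII replicate 4 and GV replicates 2 and 3, were those with the most cumulus marker RNA. The log2 change of Snrpb in Null was -4.11 without MII Null replicate 4 (also called). It was -2.25 without GV Null replicates 2 and 3 and -3.51 without all 3, with 1 GV Null library left in each fit. Its size rests on these libraries and its direction does not. Snrpd1, encoding SmD1, fell less (log2 -0.41, adjusted p 0.0108 in Null; log2 -0.37, adjusted p 0.0333 in WT). That call was lost in WT without any of GV WT replicates 1, 2 and 3 or MII WT replicates 1 and 2 (adjusted p 0.0563 to 0.157), and in Null without GV Null replicate 1 (adjusted p 0.088).

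The Sm proteins E, F and G, which join the ring as a preformed unit, changed the other way. Snrpe (ENSMUSG00000090553, chr1:133603871-133610280) stood at 21.6, 19, 16.2 and 14.6 CPM in MII Null eggs and at 15.9, 19.1 and 23.7 CPM in MII WT eggs. It stood at 11, 10.1 and 11 CPM in GV Null oocytes and at 9.47, 8.57 and 11.8 CPM in GV WT oocytes. All eggs lay above all oocytes, by 1.67-fold in Null (log2 0.74, SE 0.15, adjusted p 0.00068) and 1.97-fold in WT (log2 0.98, SE 0.16, adjusted p 0.000102). Snrpg (ENSMUSG00000057278, chr6:86371540-86378902) had 62.7, 46.6, 43.2 and 37.3 CPM in MII Null eggs and 47, 44.7 and 52.7 CPM in MII WT eggs, against 35.6, 29.8 and 31.6 CPM in GV Null oocytes and 30.1, 26.9 and 31.7 CPM in GV WT oocytes. It rose 1.47-fold in Null (log2 0.55, SE 0.14, adjusted p 0.00294) and 1.63-fold in WT (log2 0.70, SE 0.15, adjusted p 0.000834), again with no overlap between stages. Without GV Null replicates 2 and 3 together, with 1 GV Null library left, the Null log2 changes were 0.42 for Snrpg and 0.59 for Snrpf. Snrpf (ENSMUSG00000020018, chr10:93583029-93589658) had 4.01, 3.19, 2.89 and 3.17 CPM in MII Null eggs and 2.78, 2.76 and 3.05 CPM in MII WT eggs, against 2.21, 2.31 and 2.01 CPM in GV Null oocytes and 1.9, 1.6 and 2.17 CPM in GV WT oocytes. Snrpf rose 1.53-fold in Null (adjusted p 0.0109) and 1.51-fold in WT (adjusted p 0.0215), and the WT call was lost without GV WT replicate 1, GV WT replicate 2 or MII WT replicate 3 (adjusted p 0.055, 0.0959 and 0.0667). Of the ring, 4 of 8 genes (50%) were higher and 3 (37.5%) lower in each genotype. Of all genes, 22.1% were higher and 26.9% lower in Null, and 19.9% higher and 22.8% lower in WT. The remaining ring genes passed in 1 genotype each. Snrpd3, encoding SmD3, averaged 20.1 ± 4.9 CPM in MII Null eggs and 14.7 ± 2.8 CPM in GV Null oocytes (SD, n = 4 and 3), with overlapping libraries (log2 0.45, SE 0.17, adjusted p 0.0391). Its call was lost without GV Null replicate 1 or 2 or MII Null replicate 1 or 3 (adjusted p 0.0744 to 0.179), and in WT the difference was 0.12 (adjusted p 0.643). Snrpn encodes SmN, a close relative of SmB that is imprinted and best known from brain. It averaged 9.35 ± 1.2 CPM in MII WT eggs and 5.61 ± 0.91 CPM in GV WT oocytes (SD, n = 3 each; log2 0.74, SE 0.20, adjusted p 0.00562). In Null the Snrpn difference was 0.33 (SE 0.19, adjusted p 0.155). It was 0.71 without GV Null replicates 2 and 3, and 0.80 with MII Null replicate 4 left out too, with 1 GV Null library in each fit. Snurf, which shares the Snrpn transcription unit and overlaps Snrpn by 22705 bases, had 0 counts in every library. How reads in overlapping genes were counted is not given, so this does not show that Snurf RNA was absent.

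The next promoters are shown because neighbours in the same particle took opposite directions: Snrpd2 and Snrpc were lower in eggs, Snrpe and Snrpg higher. Each line gives the 250 bases before the RefSeq start of the gene, 5′ to 3′ on the gene's strand (GRCm38.p6: Snrpd2 at chr7:19149588-19149837, plus; Snrpc at chr17:27839837-27840086, plus; Snrpe at chr1:133610281-133610530, minus; Snrpg at chr6:86371290-86371539, plus). Capitals mark a match, on either strand, to 1 of the 4 motifs searched, which were the ETS core (CCGGAAG), the GC box with the letters GGGCGG, the TATA box with the letters TATAAA, and the box named for its letters CCAAT.
Snrpd2: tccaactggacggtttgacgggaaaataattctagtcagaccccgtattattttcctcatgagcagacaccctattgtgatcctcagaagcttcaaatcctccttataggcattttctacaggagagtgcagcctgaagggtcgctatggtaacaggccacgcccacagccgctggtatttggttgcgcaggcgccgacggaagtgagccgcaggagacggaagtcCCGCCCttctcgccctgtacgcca
Snrpc: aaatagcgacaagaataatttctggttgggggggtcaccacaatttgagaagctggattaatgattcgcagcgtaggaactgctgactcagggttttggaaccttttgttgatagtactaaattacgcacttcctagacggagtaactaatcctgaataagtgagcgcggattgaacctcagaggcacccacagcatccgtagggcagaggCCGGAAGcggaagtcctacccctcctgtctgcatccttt
Snrpe: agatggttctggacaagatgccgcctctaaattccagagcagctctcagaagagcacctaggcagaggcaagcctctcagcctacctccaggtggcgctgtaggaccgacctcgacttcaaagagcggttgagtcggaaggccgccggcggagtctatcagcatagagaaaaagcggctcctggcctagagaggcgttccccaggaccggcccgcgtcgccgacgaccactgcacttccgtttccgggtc
Snrpg: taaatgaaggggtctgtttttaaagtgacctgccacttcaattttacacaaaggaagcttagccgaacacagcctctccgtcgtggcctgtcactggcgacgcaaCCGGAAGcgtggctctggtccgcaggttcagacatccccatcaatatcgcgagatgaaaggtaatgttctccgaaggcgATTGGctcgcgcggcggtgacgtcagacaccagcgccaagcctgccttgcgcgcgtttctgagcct
The ETS core stood 39 bases before the start of Snrpc and 145 before that of Snrpg, which also held a reversed CCAAT box 66 bases before its start. Snrpd2 held a reversed GC box 24 bases before its start, and Snrpe held none of the 4 motifs in this window. The starts used for Snrpd2 and Snrpc lie inside the annotated genes, whose spans begin further upstream. RefSeq gave 36 such windows for 28 of the 33 members. The ETS core was in 16 of them (44.4%) and in 6.91% of all 32851 windows of that length, and the GC box was in 61.1% of the members' windows and 32.7% of all. The CCAAT box was in 27.8% and 33.8%, and the TATA box in 13.9% and 12.4%. None of the motifs contains another, and a match is a description of the sequence only.

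Among the proteins specific to U1 and U2, 1 in each particle fell and its partner did not. Snrpc encodes the C protein of U1, which helps U1 recognise the start of an intron (ENSMUSG00000024217, chr17:27840028-27851968). It stood at 1.92, 1.79, 1.18 and 1.52 CPM in MII Null eggs and at 1.76, 1.07 and 1.30 CPM in MII WT eggs, against 4.54, 5.06 and 5.58 CPM in GV Null oocytes and 5.93, 6.04 and 5.89 CPM in GV WT oocytes. The fall was 3.15-fold in Null (log2 -1.66, SE 0.20, adjusted p 1.67e-06) and 4.32-fold in WT (log2 -2.11, SE 0.22, adjusted p 3.86e-07). Snrpa, encoding the A protein of U1, which binds a stem loop of U1 RNA, averaged 26.9 ± 3.1 CPM in MII Null eggs and 27.5 ± 2.7 CPM in MII WT eggs, against 29.2 ± 3.6 CPM in GV Null oocytes and 29.2 ± 1.3 CPM in GV WT oocytes (SD, n = 4, 3, 3 and 3). Its difference was -0.12 in Null (SE 0.11, adjusted p 0.395) and -0.09 in WT (SE 0.12, adjusted p 0.578). Snrpa1 and Snrpb2 encode the A′ and B″ proteins of U2, which bind U2 RNA together. Snrpa1 (ENSMUSG00000030512, chr7:66060336-66074587) had 15.2, 18.2, 17.3 and 14.2 CPM in MII Null eggs and 18.6, 15.2 and 22.6 CPM in MII WT eggs, against 35.2, 29.7 and 31.1 CPM in GV Null oocytes and 39.7, 40 and 38.9 CPM in GV WT oocytes. Snrpb2 (ENSMUSG00000008333, chr2:143063069-143072052) had 131, 111, 123 and 111 CPM in MII Null eggs and 116, 117 and 132 CPM in MII WT eggs, against 93.8, 80.4 and 80.6 CPM in GV Null oocytes and 86.4, 84.3 and 90.1 CPM in GV WT oocytes. The stages did not overlap for either gene, with Snrpa1 lower and Snrpb2 higher in eggs. The log2 change of Snrpa1 was -0.98 in Null (SE 0.12, adjusted p 2.42e-06) and -1.07 in WT (SE 0.13, adjusted p 2.62e-06), while Snrpb2 rose by 0.48 in Null (SE 0.08, adjusted p 9.78e-05) and by 0.49 in WT (SE 0.09, adjusted p 0.000204).

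**Figure D2:**
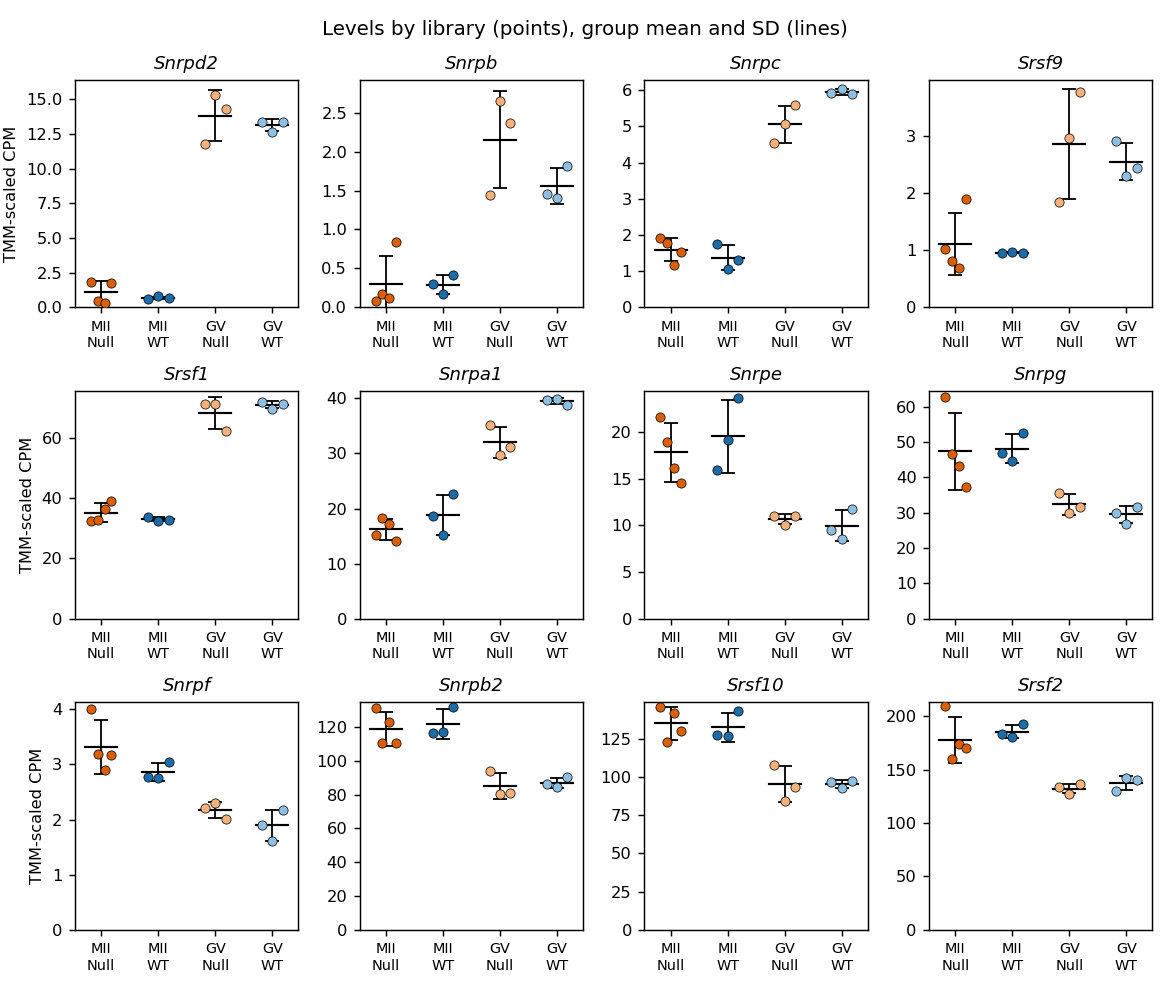
TMM-scaled CPM of the 6 members with the largest falls and the 6 with the largest rises in WT among those called in both genotypes, with 1 point per library in the 4 groups, and the group mean and SD as lines (bars are cut at 0). Eggs and oocytes do not overlap within a genotype except for Srsf9 in Null. There, 1 egg library at 1.90 CPM lies above the lowest oocyte library at 1.84 CPM. Members were chosen for large called changes, which favours stages that do not overlap. Each panel has its own axis.

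Within SF3B, the small subunits fell while larger ones rose or did not pass. Sf3b5 and Sf3b6 encode its small subunits, of which SF3B6 (p14) contacts the branch site adenosine. Sf3b5 had 19.4, 14.6, 8.80 and 11.5 CPM in MII Null eggs and 14.5, 13.9 and 13.9 CPM in MII WT eggs, against 29.9, 26.7 and 32.4 CPM in GV Null oocytes and 26.4, 23.8 and 30.5 CPM in GV WT oocytes. Its log2 change was -1.12 in Null (SE 0.19, adjusted p 0.000169) and -0.93 in WT (SE 0.21, adjusted p 0.00188). Sf3b6 averaged 1.93 ± 0.36 CPM in MII Null eggs and 1.81 ± 0.35 CPM in MII WT eggs, against 4.09 ± 0.72 CPM in GV Null oocytes and 3.67 ± 0.37 CPM in GV WT oocytes (SD, n = 4, 3, 3 and 3). Its log2 change was -1.08 in Null (adjusted p 0.000235) and -1.02 in WT (adjusted p 0.00108). Both genes were lower in eggs, with no overlap between stages. Sf3b1, the scaffold subunit that holds the branch site helix, averaged 363 ± 40 CPM in MII Null eggs and 362 ± 13 CPM in MII WT eggs, against 298 ± 17 CPM in GV Null oocytes and 309.9 ± 17.8 CPM in GV WT oocytes. It rose by 0.28 in Null (adjusted p 0.00727), where the libraries overlapped, and by 0.22 in WT (adjusted p 0.0454). Sf3b2 (0.27, adjusted p 0.00825) and Sf3b3 (0.24, adjusted p 0.0159) passed in Null, and had 0.16 (adjusted p 0.131) and 0.06 (adjusted p 0.578) in WT. Sf3b4 passed in WT (0.35, adjusted p 0.0466), with 0.25 (adjusted p 0.121) in Null, where it passed without GV Null replicate 3 (adjusted p 0.0144) or MII Null replicate 4 (adjusted p 0.0376). The Null call of Sf3b3 was lost without GV Null replicate 2 or 3 or MII Null replicate 2 or 3 (adjusted p 0.0593 to 0.1). The 3 subunits of SF3A, which joins SF3B in the mature U2 particle, gave 2 higher genes in each genotype. Of all genes, 22.1% were higher in Null and 19.9% in WT. Sf3a1 had 218, 239, 252 and 196 CPM in MII Null eggs and 236, 244 and 254 CPM in MII WT eggs, against 186, 183 and 191 CPM in GV Null oocytes and 197, 195 and 187 CPM in GV WT oocytes. It rose by 0.28 in Null (adjusted p 0.00647) and by 0.34 in WT (adjusted p 0.00251). Sf3a2 rose by 0.44 in Null (adjusted p 0.0267), with overlapping libraries and no call without GV Null replicate 1 or 2 or MII Null replicate 1 or 2 (adjusted p 0.0758 to 0.139), and by 0.42 in WT (adjusted p 0.049). Sf3a3 differed by 0.03 in Null (adjusted p 0.845) and by -0.14 in WT (adjusted p 0.328). Many of the SF3A and SF3B rises were small and lost their calls when the filter was changed or libraries were left out. With a filter of 5 CPM in 3 libraries, Sf3b1, Sf3b2, Sf3b3, Sf3a1 and Sf3a2 did not pass in Null. Sf3b1, Sf3b4 and Sf3a2 did not pass in WT under that filter (adjusted p 0.0783 to 0.205 over both genotypes). The change of Sf3b1 was then 0.16 in Null and 0.12 in WT. In Null, without GV Null replicates 2 and 3, Sf3b1, Sf3b2 and Sf3b3 had smaller changes (0.20, 0.16 and 0.04), from a fit with 1 GV Null library. Sf3a1 (0.28) and Sf3a2 (0.63) had changes there as large as before. In WT the calls of Sf3b1, Sf3b4 and Sf3a2 were lost without any of GV WT replicates 1 and 3, MII Null replicates 1, 3 and 4, or MII WT replicates 1 and 3 (adjusted p 0.0509 to 0.153).

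Of the SR protein genes, 4 of 10 tested (40%) were higher and 3 (30%) lower in each genotype. The shares of all genes were 22.1% higher and 26.9% lower in Null, and 19.9% higher and 22.8% lower in WT. Srsf1, the founding SR protein (ENSMUSG00000018379, chr11:88046499-88053757), had 32.4, 32.9, 36.4 and 39.1 CPM in MII Null eggs and 33.7, 32.6 and 32.8 CPM in MII WT eggs. It had 71.4, 71.3 and 62.3 CPM in GV Null oocytes and 72.0, 69.7 and 71.4 CPM in GV WT oocytes. The groups of each stage were tight and far apart: Srsf1 fell 1.94-fold in Null (log2 -0.96, SE 0.08, adjusted p 2.63e-08) and 2.15-fold in WT (log2 -1.10, SE 0.09, adjusted p 1.58e-08). Srsf9, a small SR protein close to Srsf1 (ENSMUSG00000029538, chr5:115327163-115333843), had 1.02, 0.805, 0.699 and 1.90 CPM in MII Null eggs and 0.960, 0.965 and 0.953 CPM in MII WT eggs, against 1.84, 2.96 and 3.77 CPM in GV Null oocytes and 2.91, 2.31 and 2.44 CPM in GV WT oocytes. The log2 change was -1.36 in Null (SE 0.30, adjusted p 0.00108), where the stages overlapped, and -1.41 in WT (SE 0.33, adjusted p 0.00227), where they did not. Srsf6, an SR protein that acts on alternative exons, had 6.82, 8.23, 7.37 and 9.17 CPM in MII Null eggs and 9.47, 8.86 and 8.92 CPM in MII WT eggs, against 11.3, 18.1 and 13.8 CPM in GV Null oocytes and 12.3, 11.4 and 14.5 CPM in GV WT oocytes. Its log2 change was -0.87 in Null (SE 0.15, adjusted p 0.000116) and -0.49 in WT (SE 0.16, adjusted p 0.022), and the WT call was lost without GV WT replicate 3, MII WT replicate 2 or MII WT replicate 3 (adjusted p 0.11, 0.0652 and 0.0634). Srsf9 and Srsf6 were higher in GV Null replicates 2 and 3, the libraries with the most cumulus marker RNA, than in GV Null replicate 1. Without those 2 libraries, with 1 GV Null library left, the Null log2 changes were -0.73 for Srsf9 and -0.51 for Srsf6. With MII Null replicate 4 left out too, they were -1.11 for Srsf9 and -0.59 for Srsf6.

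Srsf2, Srsf10, Srsf4 and Srsf5 were the higher SR protein genes. Srsf2 (SC35), a marker of nuclear speckles (ENSMUSG00000034120, chr11:116849897-116853675), had 209, 160, 174 and 170 CPM in MII Null eggs and 183, 181 and 193 CPM in MII WT eggs, against 134, 127 and 136 CPM in GV Null oocytes and 130, 142 and 141 CPM in GV WT oocytes. It rose 1.35-fold in both Null and WT (log2 0.43 in each, SE 0.08 and 0.09, adjusted p 0.000288 and 0.000545). Srsf10, which represses splicing when dephosphorylated (ENSMUSG00000028676, chr4:135855752-135869908), had 146, 122, 142 and 130 CPM in MII Null eggs and 127, 127 and 143 CPM in MII WT eggs, against 108, 84.3 and 93.5 CPM in GV Null oocytes and 96.5, 92.5 and 97.5 CPM in GV WT oocytes. It rose 1.42-fold in Null (log2 0.50, SE 0.09, adjusted p 0.000111) and 1.39-fold in WT (log2 0.47, SE 0.09, adjusted p 0.000437). Neither gene's egg and oocyte libraries overlapped. Srsf4 rose by 0.48 in Null (adjusted p 0.00451) and 0.36 in WT (adjusted p 0.036), and Srsf5 by 0.37 in Null (adjusted p 0.00238) and 0.25 in WT (adjusted p 0.0436). In WT, leaving out GV WT replicate 2 or 3, MII WT replicate 1 or 3, or any 1 MII Null library ended both calls (adjusted p 0.0607 to 0.242). In Null, without GV Null replicates 2 and 3, the changes were 0.30 for Srsf4 and 0.28 for Srsf5, from a fit with 1 GV Null library. With MII Null replicate 4 left out too, both were 0.30. Srsf3, which promotes mRNA export as well as splicing, averaged 81.8 ± 10.4 CPM in MII Null eggs and 83.4 ± 1.4 CPM in MII WT eggs, against 86.7 ± 3.9 CPM in GV Null oocytes and 89.7 ± 2.8 CPM in GV WT oocytes, and did not pass (adjusted p 0.433 in Null and 0.374 in WT). Srsf7 and Srsf11 did not pass either, with differences of -0.10 and -0.48 in Null (adjusted p 0.485 and 0.0651) and of -0.20 and -0.35 in WT (adjusted p 0.201 and 0.209). In Null, Srsf11 passed without GV Null replicate 1 (adjusted p 0.00346) or MII Null replicate 4 (adjusted p 0.0197), and Srsf3 without MII Null replicate 3 (adjusted p 0.0335). Srsf12 had 1 to 16 counts per library and was not tested. The remaining member, Snrpert, is annotated by RefSeq as a pseudogene, lies inside Rnf24, had 9 to 31 counts per library and did not pass in either genotype (adjusted p 0.302 in Null and 0.482 in WT). A pseudogene left out by the rule, Snrp1c-ps1, had 0 counts in all 7 egg libraries and 2 to 7 in the oocyte libraries, and Snrp1c-ps2 had 0 in every library.

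How reads with several matches and reads in overlapping genes were counted is not given. Srsf2 overlaps Mfsd11 by 1465 bases, Snrpf overlaps Ccdc38 by 1299 and Srsf9 overlaps Gatc by 602. Snrpn lies within Snhg14 and overlaps Snurf, and Snrpb and Snrpn are close paralogs. The values of these members may therefore include or lack reads of the partner.

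Wider splicing gene lists were counted in the same way. Of all genes tested, 22.1% were higher and 26.9% lower in Null, and 19.9% higher and 22.8% lower in WT. The Lsm proteins, most of which form rings like Sm proteins around U6 RNA or decapping targets, were the list with the lowest median. That median was -1.6 in Null and -1.77 in WT, with 7 of 10 lower in each genotype, 1 higher in Null and 0 higher in WT. Lsm5 fell (log2 -1.89 in Null and -2.25 in WT), as did Lsm6 (-1.71 and -1.8). The SMN complex, which loads Sm rings, had 2 higher and 4 lower genes of 10 tested in each genotype. Smn1, its central subunit, rose by 0.81 in Null and 0.60 in WT, while Gemin6 fell (-2.19 in Null and -2.4 in WT), as did Gemin7 (-1.44 and -1.26). Among other snRNP and tri-snRNP proteins, 5 of 22 (22.7%) were higher and 7 (31.8%) lower in Null. In WT, 3 (13.6%) were higher and 6 (27.3%) lower. The lower shares lay near those of all genes, as did the higher share in Null. Snrnp25, of the minor spliceosome, fell (-2.94 in Null and -2.92 in WT), as did Txnl4a, of the U5 particle (-1.06 and -1.26). Snrnp27 rose by 0.38 and 0.42, and Zrsr2, of the minor spliceosome, by 0.44 and 0.30. Among partners of U2 and the branch site, 2 of 13 were higher and 5 lower in Null, and 2 higher and 7 lower in WT, and the U2AF-related Puf60 fell (-1.64 in Null and -1.88 in WT). In contrast, SR protein kinases, carriers and relatives were mostly higher: 12 of 21 higher and 3 lower in Null, and 12 higher and 2 lower in WT. Srpk1, a kinase of SR proteins, rose by 0.57 in Null and 0.45 in WT, and the SR-related Srrm1 by 0.72 and 0.63, while Tra2a (-0.90 and -0.77) and Tnpo3, which imports SR proteins (-1.02 and -0.99), fell. The hnRNP genes, which often oppose SR proteins, had 15 of 24 higher and 3 lower in Null, and 9 higher and 4 lower in WT, with Ptbp1 higher (0.65 and 0.66) and Hnrnpa3 lower (-0.57 and -0.68). Catalytic and Prp19-complex (NTC) proteins had 9 of 22 higher and 5 lower in Null, and 7 higher and 6 lower in WT. Each named gene passed in both genotypes. Over all 7 lists, 46 of 122 genes were higher and 34 lower in Null, and 35 higher and 36 lower in WT, with medians of 0.11 and 0.02.

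**Figure D3:**
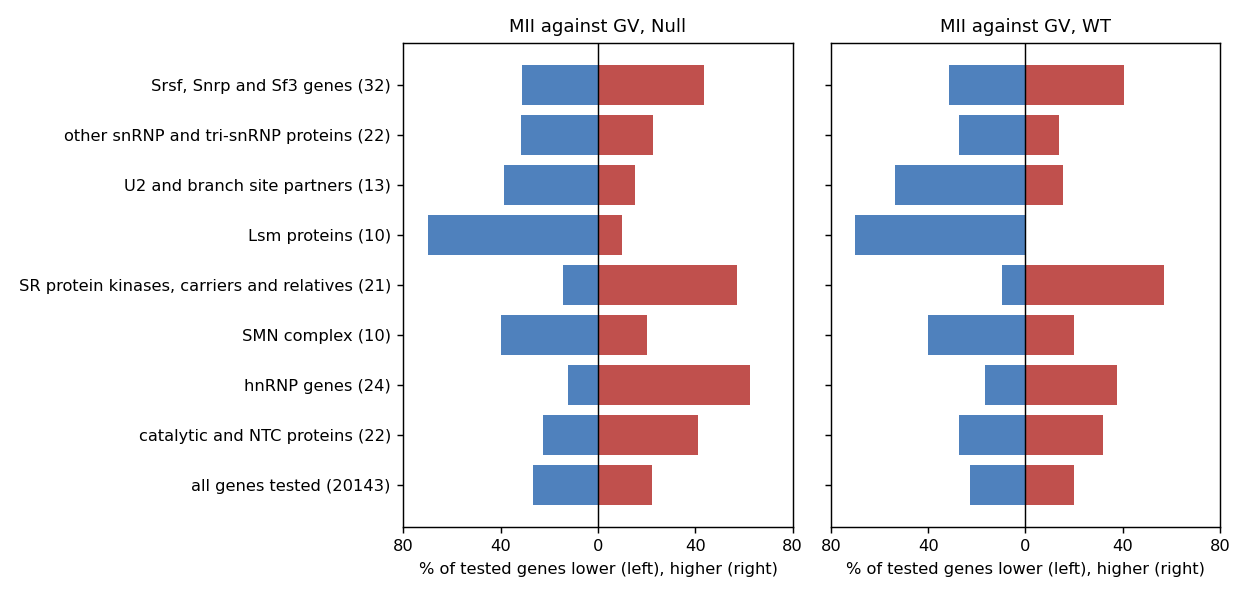
Share of tested genes in each list called lower (left, blue) and higher (right, red) in MII eggs against GV oocytes, for Null and WT, with the number tested in brackets. The Lsm proteins reach 70% lower in both genotypes, and the SR protein kinases, carriers and relatives reach 57.1% higher in both, against 26.9% and 22.8% lower and 22.1% and 19.9% higher for all genes.

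Loss of Sirena1 moved no member past the threshold. By edgeR, 0 of 32 members were called in Null against WT at either stage or in the difference of the maturation change between genotypes, and DESeq2 gave 0 in each as well. Across all genes, 0.0546% were called in MII eggs, 0.0546% in GV oocytes and 0.00496% for the difference. At an unadjusted p under 0.05, 0 members were picked out in MII eggs, 1 in GV oocytes and 0 for the difference, against 6.35%, 6.66% and 3.38% of all genes. Member changes ran between -0.31 and 0.71 on the log2 scale in MII eggs and between -0.36 and 0.46 in GV oocytes, where the SE had a median of 0.14 and reached 0.50 for Snrpb. A p that misses the threshold does not show that levels were equal.

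The GV member with an unadjusted p under 0.05 was Snrpa1, with 35.2, 29.7 and 31.1 CPM in GV Null oocytes, all below the 39.7, 40 and 38.9 CPM in GV WT oocytes (log2 -0.30, SE 0.13, unadjusted p 0.0269, adjusted p 0.716). In MII eggs the Snrpa1 libraries overlapped, at 15.2, 18.2, 17.3 and 14.2 CPM in Null against 18.6, 15.2 and 22.6 CPM in WT (log2 -0.22, SE 0.12, adjusted p 0.827). Snrpc was the other member whose GV libraries did not overlap, at 4.54, 5.06 and 5.58 CPM in GV Null oocytes against 5.93, 6.04 and 5.89 CPM in GV WT oocytes (log2 -0.24, SE 0.20, adjusted p 0.881). Both were lower in Null, and 5.93% of all genes lay wholly below WT in this comparison. Snrpd3 had 13.6, 12.6 and 17.9 CPM in GV Null oocytes and 19, 17.5 and 20.1 CPM in GV WT oocytes, with overlap (log2 -0.36, SE 0.18, adjusted p 0.768). Sf3a3 of the SF3A complex had 88.9, 72.4 and 68.1 CPM in GV Null oocytes and 96.1, 77.5 and 83.0 CPM in GV WT oocytes, also with overlap (log2 -0.16, SE 0.11, adjusted p 0.853). GV Null replicates 2 and 3 again held the lowest Sf3a3 values, and without them its difference was 0.05. They also held the lowest GV values of Snrpa1 and 1 of them that of Snrpd3. Without them the difference was -0.17 for Snrpa1 and -0.47 for Snrpd3. That fit held 1 GV Null library.

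In MII eggs the next smallest p-values belonged to Snrpn and Sf3a1. Snrpn had 7, 9.91, 7.15 and 6.09 CPM in MII Null eggs and 10.6, 9.34 and 8.16 CPM in MII WT eggs, overlapping by 1 Null library (log2 -0.31, SE 0.18, adjusted p 0.844). Sf3a1 differed by -0.11 (SE 0.08, adjusted p 0.871), with its values as given above. Snrpd2 showed the widest gap, 0.71 (SE 0.48, adjusted p 0.871), between 1.81, 0.455, 0.350 and 1.77 CPM in MII Null eggs and 0.596, 0.793 and 0.667 CPM in MII WT eggs: the Null libraries lay on both sides of WT. For the difference of the maturation change, Null minus WT, the smallest p-values were those of Srsf6 (log2 -0.38, SE 0.22), Sf3b3 (0.18, SE 0.11) and Snrpc (0.45, SE 0.29), each with an adjusted p of 0.999. Without GV Null replicates 2 and 3, the differences were -0.03 for Srsf6, -0.02 for Sf3b3 and 0.61 for Snrpc. Sf3b3, a large beta-propeller subunit of SF3B, had 153, 164, 167 and 157 CPM in MII Null eggs and 154, 156 and 149 CPM in MII WT eggs, against 156, 124 and 126 CPM in GV Null oocytes and 145, 153 and 142 CPM in GV WT oocytes. Its GV Null replicates 2 and 3 were the low libraries. The 4 groups serve in both the maturation and the genotype comparisons, so these results share libraries. Among the 122 genes of the wider lists, Strap of the SMN complex was the single gene called by genotype. It averaged 40.7 ± 3.0 CPM in MII Null eggs and 59.2 ± 4.3 CPM in MII WT eggs (SD, n = 4 and 3; log2 -0.54, SE 0.09, adjusted p 0.0172).

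**Figure D4:**
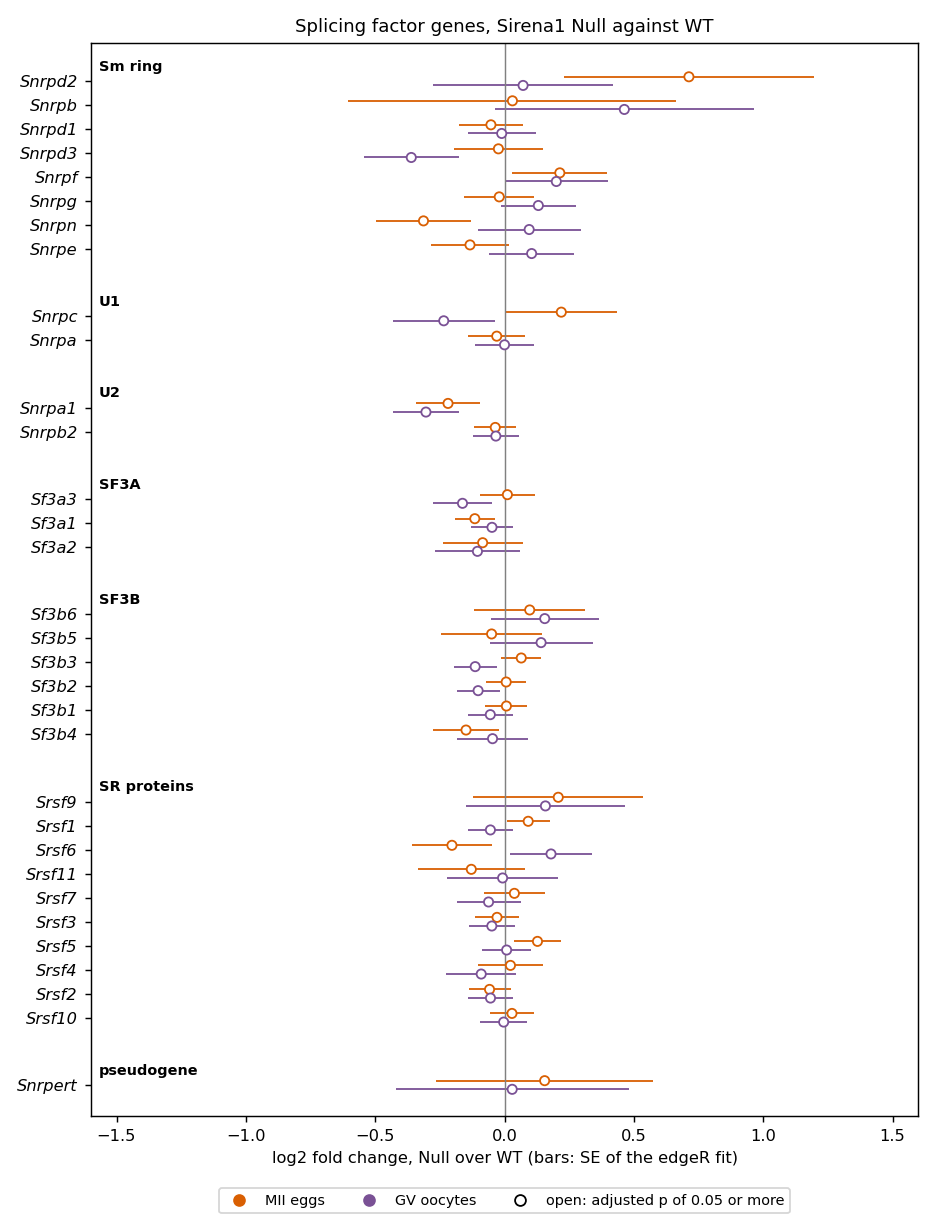
The log2 fold change of each tested member, Null over WT, in MII eggs (orange) and GV oocytes (purple), with the SE as a bar. All circles are open, since no member passed, and Snrpd2 in MII eggs lies farthest from 0, at 0.71.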

How the data were processed

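Counts per gene, as deposited by the authors, were read from the table of the whole series (13 libraries from poly(A) RNA with the Ovation RNA-Seq system, 65 bp single-end reads). Per the submitters' processing notes, STAR 2.5.3a and bedtools 2.26.0 were used. Per the file headers, identifiers are those of Ensembl release 93. Which program counted the reads, whether strand was used and how reads with several matches were treated is not given in the sources used here. Symbols came from a RefSeq-based name table, which named 54079 of 54232 rows; gene spans and promoter windows are from RefSeq, GRCm38.p6. Members and gene lists were chosen with earlier results of these data known.

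All 13 libraries entered 1 edgeR model with 4 groups (R 4.3.3, edgeR 4.0.16: TMM scaling, filterByExpr, robust glmQLFit, glmQLFTest, two-sided), with Benjamini-Hochberg adjustment over the 20143 genes tested and a threshold of 0.05. The fit was also run on counts simulated from its own means and dispersions, with changes in few genes. That run cannot vouch for the maturation calls, where many genes change, and no result of it is used here. A detection limit of 3 counts equals 0.0672 to 0.105 CPM and covers counting error only. Values in every library are given for up to 6 members per direction with the largest WT maturation change among those called in both genotypes, and for the 3 members with the smallest p in each of the genotype comparisons and the difference; Sf3b5 and Snrpd2 in MII eggs were added after their values were seen. From each wider list, examples are from the 2 genes per direction with the smallest p in WT. No 2 libraries agreed within counting noise (chi-square per degree of freedom 5.03 to 34.3 within groups). Spike-in reads were not used here. Alternatives were RLE scaling, DESeq2 1.42.0, other filters on low counts, a minimum fold of 1.5, a replicate block, a fit of the groups compared alone, and leaving out libraries.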

Additional observations from a re-analysis of the deposited data

Results flagged for a closer look

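Snrpb in MII Null replicate 4, at 0.839 CPM, lay far from the other 3 MII Null libraries, which held 0.0787, 0.127 and 0.175 CPM: the gap to its nearest neighbour took up more of the group's range than Dixon's 95% critical value for 4 samples. Chance alone flags a small share of groups by this rule. The same library held the most cumulus marker RNA of the eggs, and the part of that RNA in the value was not tested. No member passed the test of a difference in maturation change between genotypes.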

How the results depend on the processing

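Over the per-gene values of members and alternatives, 1415 of 1597 kept direction and side of the threshold, 147 lost a call, 20 gained one and 15 changed sign. With a filter of 5 CPM, 7 members were higher in Null and 7 in WT. With a minimum fold of 1.5, 0 were higher in Null, and 1 was higher and 6 lower in WT. GV Null replicates 2 and 3 were also left out together, and with MII Null replicate 4 as well (chosen after seeing the data). These fits held 1 GV Null library, so their counts of members are not given. The 1597 values include these fits. Leaving out 1 library at a time gave 11 to 15 higher and 10 to 11 lower in Null, and 7 to 13 higher and 8 to 10 lower in WT; the low counts of 7 and 8 came without GV WT replicate 1, 2 or 3, MII Null replicate 1, 3 or 4, or MII WT replicate 1 or 3. Genotype counts stayed at 0 in every setting run. The calls of Snrpd2, Snrpb, Snrpc, Srsf1, Snrpa1, Snrpe, Snrpb2, Srsf10 and Srsf2 were kept in every setting that tested them, other than the minimum fold of 1.5; for the calls that changed, the cause was not tested.

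Every value that changed sign was one that did not pass. In Null maturation, Sf3a3 gave -0.095 with the 5 CPM filter, -0.0085 and -0.0453 without GV Null replicate 2 or 3, -0.0924 without MII Null replicate 1 (-0.0924 to 0.158 over single libraries left out), -0.186 without both GV Null replicates 2 and 3, and -0.13 without these and MII Null replicate 4. Under the last pair of settings, Snrpa gave 0.0989 and 0.144 (-0.224 to -0.0397 over single libraries), the Sf3b3 difference between genotypes -0.0227 and -0.0104 (0.12 to 0.298), and Sf3a3 in GV oocytes 0.053 and 0.0517 (-0.29 to -0.0741); Srsf11 gave 0.104 under the first (-0.691 to -0.212). In WT, Sf3b3 gave -0.0369 with the 5 CPM filter and Snrpd3 -0.0484 without MII WT replicate 3 (-0.0484 to 0.207 over single libraries). Correlations of deviations between samples with the same number were -0.223 to 0.0391. Of these 12 pairs, 7 were the best match for the library of the first group. Deviations over replicates 1 to 3 alone cannot decide whether the numbers pair samples. With the replicate block, 15 members were higher and 11 lower in Null, 12 and 10 in WT, and 0 were called by genotype. RLE scaling moved the median of all genes by less than 0.1, and 9 members were higher in WT under it (without Sf3a2, Sf3b1, Sf3b4 and Srsf5), 9 with no filter on low counts and 10 by DESeq2. Levels per transcript length were not run, since no transcript lengths were given. The SE of the maturation changes was largest for Snrpb, Snrpd2, Snrpert and Srsf9.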
